A study of Rattus norvegicus with 6 samples.

Results

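The enzymes that make prostaglandins and thromboxane, and the receptors that read them, were followed in cerebral arteries of Dahl rats fed low salt or high salt chow. The genes were chosen by name: the synthases Ptgs1, Ptgs2, Ptgds, Ptgis, Ptges and Tbxas1, and the receptors Ptger2, Ptger3, Ptgir and Tbxa2r. Of these 10 genes, 9 were measured by 11 probe sets (groups of short DNA probes for one transcript), out of 10411 named genes and 15866 probe sets in all. Ptgir, the prostacyclin receptor, was not analysed here, so the receptors are represented by 3 genes. Where a gene had more than 1 probe set, the one with the highest mean over the 6 arrays stood for it.

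The low salt group ate chow with 0.4% NaCl and the high salt group chow with 8% NaCl, both from 7 weeks of age, and Dahl rats are bred for a rise in blood pressure on salt. Each diet had 3 samples, each a pool of arteries from 3 rats, or 9 rats per diet. The low salt rats are labelled as 12 weeks on the diet. For the high salt rats one label says 11 weeks and the treatment protocol 12. The vessels were the resistance-size first branches of the arterial ring below the brain, taken whole, with muscle, endothelium and adhering tissue together. In such bulk samples, fewer cells of a type and less RNA per cell cannot be told apart.

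Prostanoids are short-lived lipid signals made from arachidonic acid. Phospholipases release the acid from membranes, the cyclooxygenases Ptgs1 and Ptgs2 turn it into a common precursor, and a separate synthase then makes each end product. In arteries, prostacyclin from Ptgis relaxes smooth muscle and restrains platelets, while thromboxane from Tbxas1, acting through Tbxa2r, contracts muscle and activates platelets. Prostaglandin D2 from Ptgds and prostaglandin E2 from Ptges act on their own receptors, and the E2 receptors differ in effect, Ptger2 raising cyclic AMP and Ptger3 mostly lowering it.

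Smooth muscle markers were bright, with a mean of 11.12 to 12.02 log2 units over 8 genes on the low salt arrays and 11.31 to 11.48 on the high salt arrays, as the tissue label has it. Markers of the brain's coverings and of fibroblasts were bright too, at 11.09 to 12.17 on low salt and 11.70 to 12.26 on high salt (10 genes). Astrocyte markers averaged 9.27, 10.96 and 8.63 on low salt replicates 1, 2 and 3, and 10.64 to 10.82 on the high salt arrays. Low salt replicate 2 thus stood apart from the other low salt arrays, with the lowest smooth muscle mean of the 6 (11.12) and the highest astrocyte mean.

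The stretches of DNA before 3 of the synthase genes are shown: those of the cyclooxygenases, which carry out the first step, with Ptgs2 the member that varied most across the arrays, and that of Ptgds, the brightest member. Each is the 250 bases before the annotated start, 5′ to 3′ on the gene's strand, from RefSeq. Capitals mark matches to the searched motifs.
Ptgs1 (GRCr8 chr3:39981169-39981418, + strand): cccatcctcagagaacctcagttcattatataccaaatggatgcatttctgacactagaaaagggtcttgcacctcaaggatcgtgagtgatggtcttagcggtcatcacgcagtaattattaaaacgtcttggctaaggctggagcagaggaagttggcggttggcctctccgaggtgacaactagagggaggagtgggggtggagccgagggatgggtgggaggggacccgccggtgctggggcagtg
Ptgs2 (GRCr8 chr13:64713813-64714062, + strand): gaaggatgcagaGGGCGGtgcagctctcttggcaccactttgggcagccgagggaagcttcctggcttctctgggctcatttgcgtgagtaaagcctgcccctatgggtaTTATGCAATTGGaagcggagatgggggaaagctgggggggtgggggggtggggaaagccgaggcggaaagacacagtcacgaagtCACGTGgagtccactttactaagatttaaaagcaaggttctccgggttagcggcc
Ptgds (GRCr8 chr3:28682979-28683228, - strand): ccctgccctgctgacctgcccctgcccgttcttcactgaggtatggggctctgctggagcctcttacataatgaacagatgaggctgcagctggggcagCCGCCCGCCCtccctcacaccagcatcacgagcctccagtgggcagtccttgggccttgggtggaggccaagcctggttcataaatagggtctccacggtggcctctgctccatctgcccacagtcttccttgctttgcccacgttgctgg
The motifs were picked with these sequences in view and searched on both strands. The E box, CACGTG, was found in 5.59% of the stretches of this length before 33469 annotated starts. The C/EBP site, TTGCNNAA, was found in 9.22% of them. The GC box, GGGCGG, was found in 30.5% and the shorter CCAAT box in 34.0%. A TATA box, TATAAA, was found in 12.9%. The AP-1 site, TGAGTCA, was found in 4.05%. The Ptgs2 stretch held a GC box 238 to 233 bases before the start, a C/EBP match at 140 to 133, a CCAAT match at 133 to 129 that overlaps it by its first base, and an E box at 55 to 50. Ptgds held a pair of overlapping GC boxes on the reverse strand, at 151 to 146 and 147 to 142. The Ptgs1 stretch held 0 matches. Of the 9 genes of the group with a sequence here, Ptgir among them and Ptgis not, 5 held a GC box, 2 a C/EBP site, and 1 each an E box, a CCAAT box and a TATA box. A match describes letters and no binding, which was not measured.

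No synthase or receptor differed between the diets at the threshold. Of the 9 genes, 0 had an adjusted p below 0.05 (limma, Benjamini-Hochberg over 15866 probe sets), where 0% of all probe sets did, and 0 stood below 0.05 before adjustment, against 5.33% of all probe sets. The lowest adjusted p of the group was 0.803. Of the 6 synthases 5 were on the high side after the high salt diet, at a median difference of 0.22 log2 units, and of the 3 receptors 3 were on the low side, with a median of -0.13. Over all 10411 genes 60% were on the high side and 40% on the low side, with a median of 0.07.

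**Figure D1:**
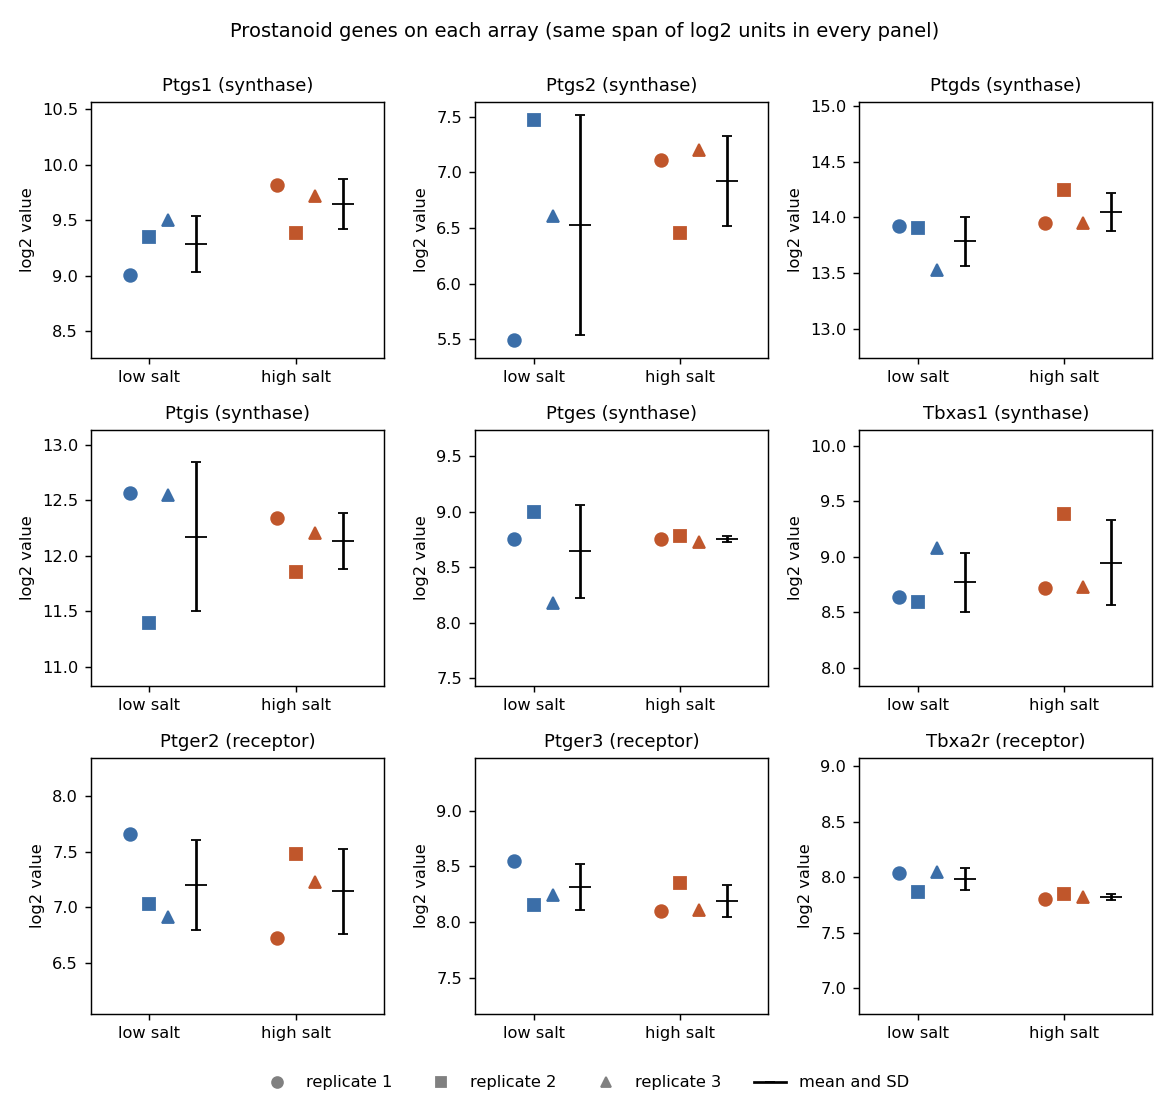
Log2 value of each gene on each of the 6 arrays, low salt in blue and high salt in orange, with the replicate number as the symbol and the mean and SD of 3 arrays in black. Every panel spans the same number of log2 units, so that Ptgs2 shows the widest scatter and Tbxa2r the narrowest.

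The cyclooxygenases carry out the first committed step. Ptgs1, the form present in most tissues, read 9.01, 9.35 and 9.50 log2 units on low salt replicates 1 to 3, and 9.82, 9.39 and 9.72 on the high salt arrays. High salt replicate 2 lay inside the low salt range, and the other two high salt arrays lay above it. The means were 9.29 ± 0.25 (SD, n = 3) and 9.64 ± 0.23, a difference of 0.35 ± 0.18 (SE), or 1.28-fold, with a 95% interval from -0.09 to 0.80. Its unadjusted p of 0.0991 was the lowest of the group, and the adjusted p was 0.803 (limma). The difference was 0.22 with low salt replicate 1 left out, and 0.13 after quantile normalization.

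Ptgs2, the form that cells induce on stimulation, was dim and scattered. It read 5.50, 7.47 and 6.60 on low salt and 7.11, 6.45 and 7.20 on high salt, at a mean level of 6.72 close to the lower quartile of all probe sets (6.60). The 3 low salt arrays spanned 1.98 log2 units, from the lowest to the highest value of all 6, and enclosed the high salt arrays. The difference of 0.40 ± 0.52 was larger than that of Ptgs1 but its interval ran from -0.88 to 1.67 (adjusted p = 0.850, limma). It was -0.12 with low salt replicate 1 left out, and 0.87 with replicate 2 left out instead.

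Ptgds, the lipocalin-type prostaglandin D synthase, made in large amounts by the coverings of the brain, was the brightest of the 10411 genes. A probe set's brightness depends on its probes as well as on the transcript, so this rank is no measure of molecules. Ptgds read 13.92, 13.90 and 13.53 on low salt and 13.94, 14.25 and 13.95 on high salt. All 3 high salt arrays lay above all 3 low salt arrays, by a margin of 0.02 log2 units at the nearest pair. The means of 13.79 ± 0.22 and 14.05 ± 0.17 (SD, n = 3) differed by 0.26 ± 0.16 (SE), or 1.20-fold, with an interval from -0.12 to 0.65 (adjusted p = 0.803, limma). With low salt replicate 3 left out it was 0.13, and with high salt replicate 2 left out 0.16. Arrays of the diets did not overlap in this direction for 8.64% of all genes.

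Ptgis, prostacyclin synthase, was the other very bright member, brighter than 98.4% of probe sets. It read 12.57, 11.40 and 12.55 on low salt and 12.34, 11.85 and 12.21 on high salt. Low salt replicate 2 was the lowest of the 6 arrays and the other two low salt arrays were the highest. The means were 12.17 ± 0.67 and 12.13 ± 0.25 (SD, n = 3), a difference of -0.04 ± 0.35 with an interval from -0.90 to 0.83 (adjusted p = 0.984, limma). Without low salt replicate 2 the difference was -0.42 ± 0.17, with an unadjusted p of 0.0575 and an adjusted p of 0.303 (limma).

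Ptges, the inducible microsomal synthase of prostaglandin E2, read 8.76, 8.99 and 8.18 on low salt and 8.76, 8.78 and 8.72 on high salt. The high salt arrays were nearly identical (SD 0.03) and lay within the low salt range. The difference was 0.11 ± 0.22 (interval -0.42 to 0.64), and a dimmer second probe set gave -0.07 ± 0.17. Leaving out low salt replicate 3 turned the Ptges difference to -0.12, and leaving out replicate 2 or 1 gave 0.29 or 0.17. Tbxas1, thromboxane synthase, read 8.64, 8.60 and 9.08 on low salt and 8.72, 9.39 and 8.73 on high salt. One array in each diet stood above the rest, low salt replicate 3 and high salt replicate 2. The difference was 0.17 ± 0.24 (interval -0.41 to 0.75). It ran from -0.05, with high salt replicate 2 left out, to 0.33, with low salt replicate 3 left out.

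The receptors measured here stood at or below the middle of the brightness range and differed little. Tbxa2r, the thromboxane receptor, read 8.04, 7.87 and 8.04 on low salt and 7.80, 7.85 and 7.82 on high salt. All 3 high salt arrays lay below all 3 low salt arrays, as they did for 3.32% of all genes. The difference was -0.16 ± 0.09, or 0.896-fold, and its interval, from -0.39 to 0.07, was the narrowest of the group (adjusted p = 0.803, limma). After quantile normalization it was -0.27 ± 0.10, with an unadjusted p of 0.0354 and an adjusted p of 0.781 (limma).

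Ptger3, the E2 receptor EP3, read 8.55, 8.15 and 8.24 on low salt and 8.10, 8.35 and 8.10 on high salt. The diets overlapped, with a difference of -0.13 ± 0.15 (interval -0.49 to 0.23). It was -0.01 with low salt replicate 1 left out, and -0.21 with either low salt replicate 2 or high salt replicate 2 left out. A second probe set, brighter than only 2.14% of probe sets, gave 0.13 ± 0.10. Ptger2, the E2 receptor EP2, read 7.66, 7.03 and 6.91 on low salt and 6.73, 7.48 and 7.23 on high salt. Both diets spanned nearly the same range, and the difference was -0.05 ± 0.28 (interval -0.74 to 0.63), turning to 0.17 without low salt replicate 1 and to 0.15 without high salt replicate 1.

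**Figure D2:**
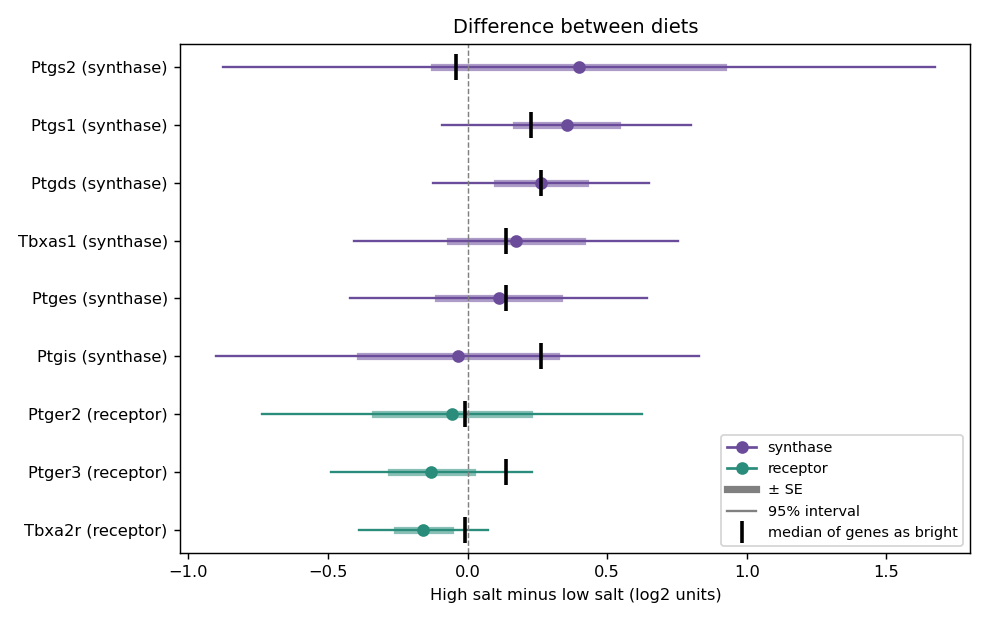
Difference between the diets (high salt minus low salt, log2 units) for the 9 genes, synthases in purple and receptors in green, with the SE as a thick bar and the 95% interval as a thin one. Black ticks give the median difference of all genes in the same brightness band (5 bands of equal size), and every interval crosses 0.

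The synthases and receptors were set side by side by their medians, with no test. The synthase median lay 0.35 log2 units above the receptor median, and this gap ran from 0.18 to 0.51 when 1 array was left out, the extremes being low salt replicates 1 and 2. The synthases are also the brighter genes, with a median level of 9.16 against 7.90, and in these arrays the difference between diets went with brightness. With the genes split by brightness into 5 bands of equal size, the median gene stood at -0.04 in the dimmest band, -0.01 in the next, then 0.14, 0.23 and 0.26 in the brightest. Set against the median of its own band, Ptgds was at the median (0.26 against 0.26), Ptgs1 was 0.13 above it, Tbxas1 0.04 above and Ptges at -0.03. Ptgis stood at -0.30 and Ptgs2 at 0.44, and the receptors at -0.05 for Ptger2, -0.15 for Tbxa2r and -0.27 for Ptger3. After quantile normalization, which makes the arrays' distributions alike, 3 of 6 synthases were on the high side, with a median of 0.06, and 3 of 3 receptors on the low side.

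The members varied more between low salt pools than between high salt pools. The SD over 3 arrays was larger on low salt for 8 of the 9 genes, the exception being Tbxas1, as it was for 71% of all genes. Over the members the median SD was 0.27 for the low salt arrays and 0.23 for the high salt arrays. Over all genes it was 0.27 and 0.16.

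Other genes of the pathway, 56 measured of a list of 67, were evenly split, with 28 on each side and a median of 0.01. None passed the adjusted threshold (0 of 56, limma), and 4 stood at an unadjusted p below 0.05 on the high side and 0 on the low side, or 7.14% and 0%, against 5.72% and 0.711% of all genes. Of 8 genes for release of arachidonic acid, Anxa1, annexin A1, which restrains phospholipase A2, was among these 4. It read 10.31, 11.62 and 11.66 on low salt and 12.02, 12.16 and 12.31 on high salt. The low salt arrays all lay below the high salt arrays, and the difference was 0.97 ± 0.38 (unadjusted p = 0.0454, adjusted p = 0.803, limma), or 0.52 without low salt replicate 1. The secreted phospholipases Pla2g2a (-0.95 ± 0.44) and Pla2g5 (-0.58 ± 0.27) were on the low side, at unadjusted p of 0.0784 and 0.0809. Leaving out low salt replicate 2 put them at -1.33 and -0.87, and leaving out replicate 1 at -0.54 and -0.36.

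**Figure D3:**
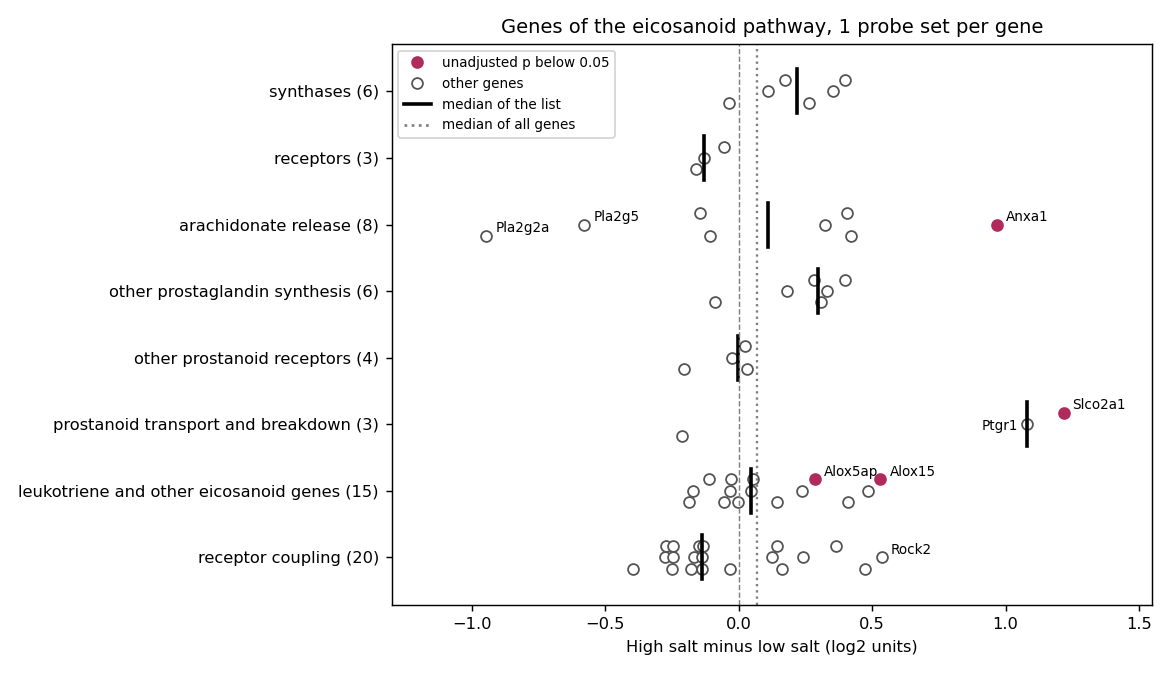
Difference between the diets (high salt minus low salt, log2 units), 1 point per gene, for the synthases, the receptors and 6 other lists of the pathway, with the number of genes measured. Filled points have an unadjusted p below 0.05, black bars are list medians and the dotted line is the median of all genes at 0.07.

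Transport and breakdown held the largest difference among these 56 genes. Slco2a1, the transporter that takes prostaglandins into cells for removal, read 8.83, 9.87 and 8.43 on low salt and 10.34, 10.09 and 10.35 on high salt. All 3 high salt arrays were above the low salt arrays, with low salt replicate 2 near them and the other two more than a log2 unit below. The difference was 1.22 ± 0.37 (unadjusted p = 0.0171, adjusted p = 0.803, limma), 0.91 when low salt replicate 3 was left out and 1.63 when replicate 2 was, and a dimmer second probe set gave -0.20 ± 0.13. Ptgr1, a reductase that inactivates prostaglandin products, read 8.04, 9.60 and 7.97 on low salt and 9.50, 9.98 and 9.38 on high salt, so that low salt replicate 2 again lay with the high salt arrays. Its difference was 1.08 ± 0.47 (unadjusted p = 0.0629), and 1.61 ± 0.21 with low salt replicate 2 left out (unadjusted p = 0.000484, adjusted p = 0.0953, limma). Hpgd, which begins prostaglandin breakdown, stood at -0.21 ± 0.12.

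Astrocyte and meningeal marker means had the same split of the low salt arrays as Slco2a1 and Ptgr1, with replicate 2 high and replicates 1 and 3 low. Both marker means were also higher on average on high salt, by 1.08 and 0.52 log2 units. Fits with them as covariates therefore cannot fully separate them from diet. With the astrocyte mean as a covariate Slco2a1 differed by 0.55 ± 0.14 (unadjusted p = 0.0111) and Ptgr1 by 0.29 ± 0.29, and with the meningeal mean, a fit added after seeing the data, by 0.74 ± 0.30 (unadjusted p = 0.0547) and 0.36 ± 0.22. The adjusted p was 1.00 in each of these (limma).

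Of further synthesis genes 5 of 6 were on the high side, where 60% of all genes were, with a median of 0.30. Their median level, 9.88, fell in the brightness band whose median gene stood at 0.23. The list included Ptges3, the brightest (0.31 ± 0.32), Ptges2 (0.33 ± 0.16), the carbonyl reductase Cbr1 (0.28 ± 0.12) and Cbr3 (0.18 ± 0.12). After quantile normalization these were 0.11, 0.09, 0.04 and 0.05, in that order. Of the other prostanoid receptors Ptgfr, the brightest, stood at 0.02 ± 0.13, Ptger1 at -0.03 ± 0.09 and Ptger4 at -0.21 ± 0.17. Among 15 leukotriene and other eicosanoid genes, Alox15, a lipoxygenase, differed by 0.53 ± 0.18 (unadjusted p = 0.0288) and Alox5ap, which hands arachidonic acid to the lipoxygenase Alox5, by 0.29 ± 0.12 (0.0486). After median centring neither was below 0.05 (0.0904 and 0.253). Cyp2j4, an epoxygenase, stood at 0.48 ± 0.25, and Ephx1, the brightest of that list, at 0.41 ± 0.45.

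Genes that couple the receptors to the cell were on the low side in 13 of 20, where 40% of all genes were, with a median of -0.14. Their median level, 9.18, fell in the brightness band whose median gene stood at 0.23. Of the 20, 0 passed the adjusted threshold, where 0% of all genes did. Prkaca, the catalytic subunit of the cyclic AMP-dependent kinase, differed by -0.25 ± 0.15, Pde4d, which breaks down cyclic AMP, by -0.17 ± 0.11 and the adenylate cyclase Adcy5 by 0.36 ± 0.20. Prkar1a, a regulatory subunit of the same kinase and the brightest of the list, stood at -0.18 ± 0.15, but its other two probe sets gave 0.38 ± 0.48 and 0.61 ± 0.29.

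**Figure D4:**
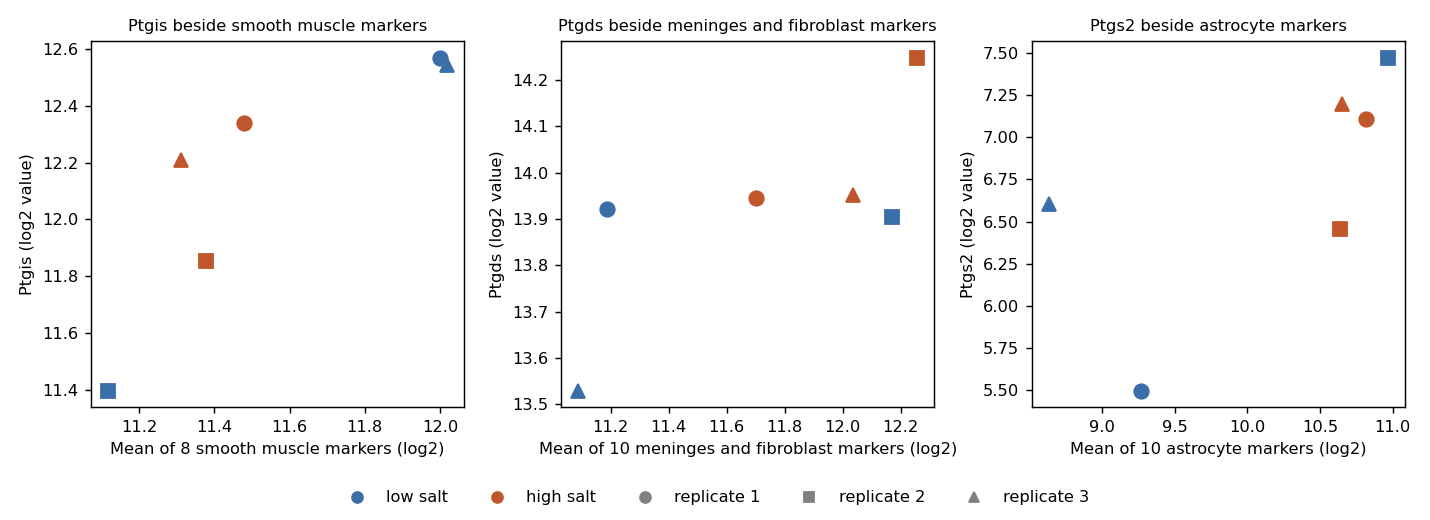
Log2 value of Ptgis, Ptgds and Ptgs2 on each of the 6 arrays (vertical) against the array's mean over smooth muscle, meninges and fibroblast, or astrocyte markers (horizontal, log2). Low salt replicate 2 has the lowest Ptgis value and the lowest smooth muscle mean.

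Marker means are given beside some members, and their part in the member values was not tested beyond the covariates. Which cells made each member was not measured, and Ptgs2 is shown beside astrocyte markers without astrocytes being taken as its source. Ptgis was lowest on low salt replicate 2 (11.40), where the smooth muscle mean was 11.12, and highest on low salt replicates 1 and 3, where it was 12.00 and 12.02. On the high salt arrays, with Ptgis at 11.85 to 12.34, that mean was 11.31 to 11.48. The array with the lowest mean there, replicate 3, had a Ptgis of 12.21, above the 11.85 of replicate 2. The endothelial mean was also lowest on low salt replicate 2 (9.21), against 9.48 and 9.66 on replicates 1 and 3. On high salt the endothelial mean was 9.64 to 9.85, above the 9.48 of low salt replicate 1, where Ptgis was highest. After high salt, 8 of 8 smooth muscle markers were on the low side, where 40% of all genes were. Of the 8, 0 stood at an unadjusted p below 0.05 (limma). The brightest, Tagln, differed by -0.09 ± 0.16 and the one of lowest p, Myl9, by -0.74 ± 0.30. Relative to each array's own smooth muscle mean, Ptgis differed by 0.29 ± 0.35. With the meningeal mean as a covariate, a fit added after seeing the data, it differed by 0.52 ± 0.14 (unadjusted p = 0.0134, adjusted p = 1.00, limma), and with the astrocyte mean by 0.52 ± 0.26.

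Ptgds was lowest on low salt replicate 3 (13.53) and highest on high salt replicate 2 (14.25), which were also the arrays with the lowest (11.09) and highest (12.26) meningeal and fibroblast mean. The arrays between did not keep that order: low salt replicate 2 had the next highest mean (12.17) with a Ptgds of 13.90, and replicate 1 a mean of 11.19 with a Ptgds of 13.92. Of these 10 markers 9 were on the high side after high salt, among them the brightest, Igf2 (0.65 ± 0.37), and the one of lowest p, Crabp2 (0.84 ± 0.38). With that mean as a covariate the Ptgds difference was 0.13 ± 0.18, and with the astrocyte mean 0.14 ± 0.20, against 0.26 ± 0.16 with neither. Both means themselves differed between the diets, by 0.52 and 1.08 log2 units, so these fits cannot fully separate them from diet. Choroid plexus markers, from another site of Ptgds expression, averaged 6.70 to 7.30 on low salt and 6.76 to 7.45 on high salt. Of the 5, 2 lay below the lower quartile. Their mean too was lowest on low salt replicate 3 and highest on high salt replicate 2. The order between differed here as well, with high salt replicate 3 next lowest (6.76) at a Ptgds of 13.95. Of the choroid plexus markers only Ttr was itself lowest on low salt replicate 3 (6.45) and highest on high salt replicate 2 (9.99). The brightest, Folr1, read 8.49 and 8.65 on those arrays.

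Tbxas1 is made by platelets and macrophages, whose markers are given beside it. The mean over 4 platelet and megakaryocyte markers was 8.19 on low salt replicate 3 and 8.34 on high salt replicate 2, the 2 arrays with the highest Tbxas1, and 7.89 to 8.01 on the rest. Among these markers, Pf4 and Itga2b were highest on low salt replicate 3 and high salt replicate 2. Ppbp and Gp5, dim at mean levels of 6.51 and 6.63, were highest on low salt replicate 1. Of the 4, 1 was on the high side and 3 on the low side after high salt. Macrophage and microglia markers (6 genes, 4 on the high side and 2 on the low side) averaged 8.84 to 9.47 on low salt and 9.43 to 9.73 on high salt, with the one of lowest p, C1qa, at 1.19 ± 0.34 (unadjusted p = 0.0144, adjusted p = 0.803, limma). Red blood cell markers averaged 10.03 to 10.22 on low salt and 10.46 to 11.18 on high salt, with 3 of 3 on the high side and Hbb, the brightest, at 0.94 ± 0.24 (unadjusted p = 0.00904, adjusted p = 0.803, limma). The arrays of the diets did not overlap for Hbb. Endothelial markers averaged 9.21 to 9.66 and 9.64 to 9.85. Ptgs2 with the astrocyte mean as a covariate differed by -0.19 ± 0.56. The part of platelets, macrophages and blood content in the Tbxas1 values was not tested.

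The genes whose pattern over the 6 arrays was most like Ptgds, among 5204 genes above the median level, were Tmem37 (Pearson correlation 0.995), Rab3b (0.975) and Ppp1r1a (0.972). For Ptger3, the brightest receptor, they were Tbc1d9b (0.995), Mast3 (0.989) and Ralgds (0.987), among 5205. They are the best of these candidates over 6 arrays that share 2 diets, and are given as a description with no test.

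**Figure D5:**
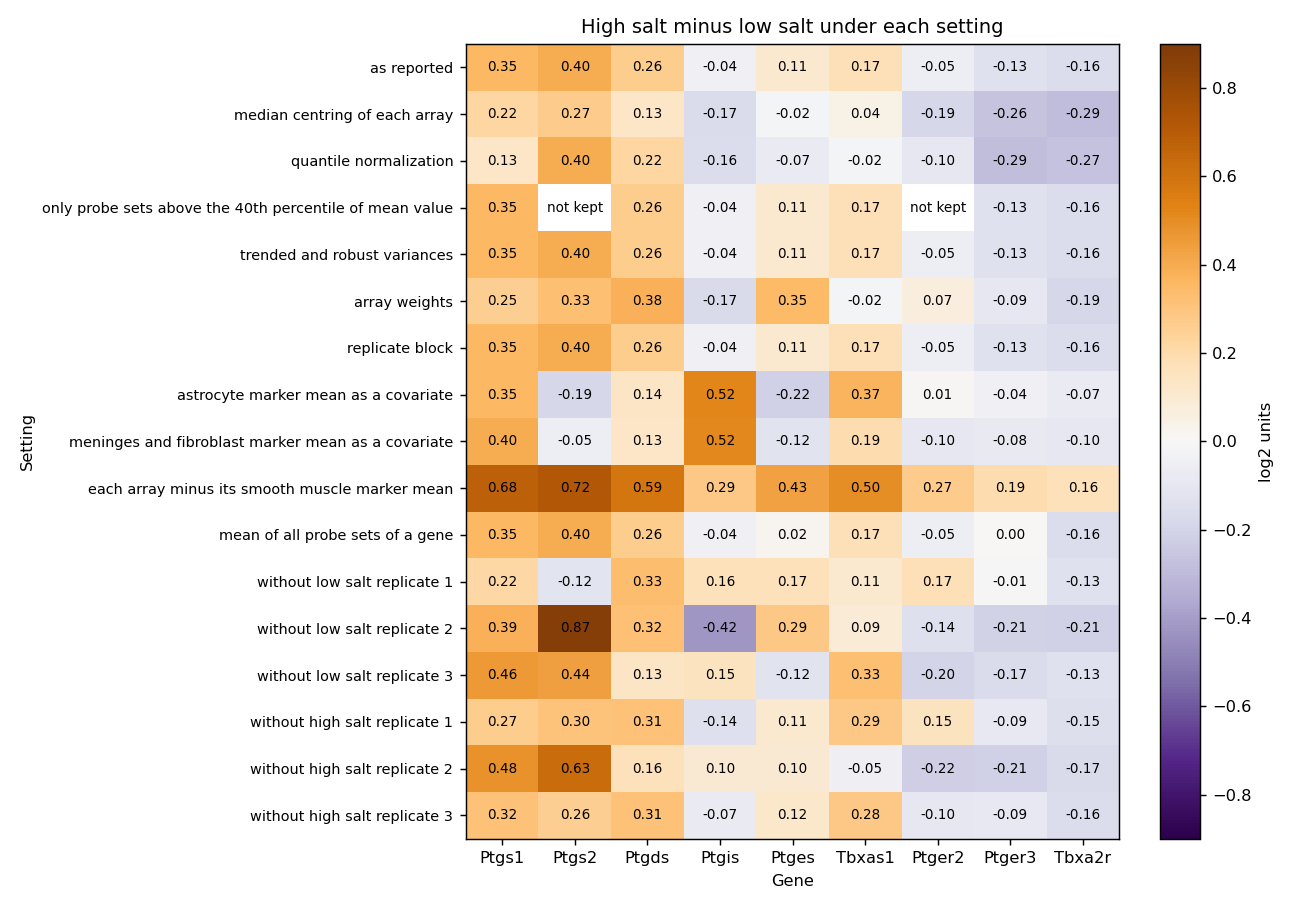
Difference between the diets (high salt minus low salt, log2 units) for each of the 9 genes (columns) under each setting of the analysis (rows), with the value in each cell and the color from purple (lower) to orange (higher). Ptgs1 and Ptgds keep their sign in every row, and Ptgis ranges from -0.42 to 0.52.

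The sign of the difference held in every setting shown for Ptgs1 (0.13 to 0.68) and Ptgds (0.13 to 0.59), and in 15 of 16 alternatives for Tbxa2r. It turned in 6 of 16 alternatives for Ptgis, in 5 of 16 for Ptges and in 5 of 15 for Ptger2, and 0 members were called in any setting.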

How the data were processed

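RNA from 6 pools was amplified in 2 cycles, and each pool was read on its own Affymetrix rat array, per the labels' protocols. The deposited values are on a log2 scale, 1 per probe set and array, made by the authors with RMA (background correction, normalization between arrays and probe summary), per the submitters' processing notes. The RMA version was not given in these sources. Base 2 follows from the use of RMA and the span of the values. Array medians still ran from 7.96 to 8.17 and interquartile ranges from 2.57 to 3.18, so differences in distribution between arrays remain in the measurements.

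Of 15923 rows, 57 controls were dropped. Genes were named from the platform annotation where a probe set had 1 symbol (12783, with 312 having several and 2771 none), and 12748 were matched to RefSeq by gene identifier, which changed 0 symbols. limma (version 3.58.1 in R 4.3.3; lmFit and eBayes) compared 3 arrays with 3, with no block, Benjamini-Hochberg adjustment over 15866 probe sets and a threshold of 0.05. SDs are over 3 arrays, SEs and 95% intervals are moderated, and the number of arrays limits the precision. Data were simulated for this comparison, over 15866 probe sets with 200 changed. Of changes of 1 log2 unit 44.5% were recovered, and of changes of 2, 85.5%. False calls were 8 of 97 and 17 of 188. Changes between 0 and 1 were not simulated, and the largest member difference was 0.40. Replicates are pools of different rats. Over all probe sets, deviations from the diet means correlated at 0.04, -0.27 and 0.04 between arrays of the same replicate number. Such correlations cannot exclude a shared effect in single genes. For Ptgis a fit with the replicate number as a block lowered the SE from 0.35 to 0.21.

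The genes and gene lists were chosen with earlier results of these data known. All members are named. Of each other pathway list the text names the brightest gene and the 3 of lowest p, of the marker lists the brightest and the gene of lowest p where a list bears on a member, and for the brightest synthase and receptor the 3 most correlated genes. Anything else named was picked after its values were seen. Alternatives were other scalings, a filter, other variance models, array weights, the replicate block, marker covariates, other probe set rules and leaving out each array.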

Additional observations from a re-analysis of the deposited data

How the results depend on the processing

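In every alternative run 0 of the measured members were called (limma, Benjamini-Hochberg), also with adjustment over 1 probe set per gene or a threshold of 0.10. The number of members at an unadjusted p below 0.05 was 0, or 1 after quantile normalization (Tbxa2r), with array weights (Ptgds), with the meningeal covariate added after seeing the data (Ptgis) and without high salt replicate 2 (Ptgs1). The synthase median, 0.22, was 0.055 after quantile normalization and 0.54 relative to the smooth muscle mean, and ran from 0.13 to 0.30 with 1 array left out. The receptor median, -0.13, was -0.26 after median centring, -0.27 after quantile normalization, -0.040 with the astrocyte covariate, -0.055 when probe sets of a gene were averaged and 0.19 relative to the smooth muscle mean, and ran from -0.21 to -0.012 with 1 array left out. The smooth muscle mean was lower on average on high salt, though lowest of all on low salt replicate 2. Subtracting this mean adds the same amount to the difference of every gene, so the median of all genes went to 0.39. The gap between synthases and receptors was 0.26 to 0.38 over the alternatives that kept all arrays, and 0.18 to 0.51 with 1 array left out. With the replicate block the medians were 0.22 and -0.13 again, and 0 members were called.

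Signs turned as follows. After median centring Ptges was -0.020 and the median of all genes -0.064, and after quantile normalization Ptges was -0.075, Tbxas1 -0.017 and the median of all genes -0.019. With array weights, whose estimate stopped before convergence, Tbxas1 was -0.017 and Ptger2 0.068. With the astrocyte covariate Ptgs2 was -0.19, Ptgis 0.52, Ptges -0.22 and Ptger2 0.012, and with the meningeal covariate Ptgs2 was -0.052, Ptgis 0.52 and Ptges -0.12. Relative to the smooth muscle mean Ptgis was 0.29, Ptger2 0.27, Ptger3 0.19 and Tbxa2r 0.16. Over the mean of both probe sets Ptger3 was 0.0027. With 1 array left out, the ranges were -0.12 to 0.87 for Ptgs2, -0.42 to 0.16 for Ptgis, -0.12 to 0.29 for Ptges, -0.046 to 0.33 for Tbxas1 and -0.22 to 0.17 for Ptger2. Apart from the construction of the smooth muscle setting, the cause was not tested.

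Over all probe sets, 846 stood at an unadjusted p below 0.05, against 1439 with array weights, 2722 without low salt replicate 2 and 366 without high salt replicate 1. Among the 56 other pathway genes the 4 higher and 0 lower became 2 and 2 after median centring or quantile normalization. They became 6 and 3 when low salt replicate 2 was left out. The probe sets of Ptgs2 and Ptger2 were not kept above the 40th percentile of mean value.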

Other observations

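Ptgs2os, a long noncoding RNA whose gene neighbours that of Ptgs2, had a probe set of its own. It was picked after its values were seen. It read 7.84, 7.06 and 8.15 log2 units on low salt replicates 1 to 3, and 7.48, 7.30 and 7.67 on the high salt arrays. Low salt replicate 2 was the lowest of the 6 for Ptgs2os and the highest for Ptgs2. The other arrays did not keep such an opposite order, as high salt replicate 2 was next to lowest for both (7.30 for Ptgs2os and 6.45 for Ptgs2). The Ptgs2os difference between diets was -0.20 ± 0.29 (SE, adjusted p = 0.864, limma).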
